A study of Pinus pinaster with 18 samples.

Results

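In maritime pine (*Pinus pinaster*), 49 of 287424 transcripts in the count table were well covered in every somatic embryo library and close to empty in every zygotic one. They were selected on those values: at least 10 CPM (counts per 1000000 counts of the library) in each of the 9 somatic libraries, and below 1 CPM in each of the 9 zygotic libraries. The difference between somatic and zygotic embryos is therefore given as a description without a test. The selection did not compare the somatic stages with each other, and changes between them are tested. Its limit of 10 CPM applied to every somatic library, however, so a transcript that started lower in ES1 or ended lower in ES3 could not be among the 49. The name "present only in somatic embryos" holds less strictly than it sounds. Only 5 of the 49 had no count in any zygotic library, and 44 had at least 1 count there.

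The somatic embryos came from 1 embryogenic line, PN519, a controlled cross, matured in darkness at 24 °C with 80 µM abscisic acid (ABA), 68 g/L sucrose and 9 g/L Phytagel. ES1 is the translucent early stage (4 to 6 weeks), ES2 the opaque pre-cotyledonary stage (6 to 10 weeks) and ES3 the cotyledonary stage (12 to 14 weeks). The zygotic embryos were dissected from seeds of 1 seed orchard at PC (pre-cotyledonary), EC (early cotyledonary) and C (cotyledonary). Each stage had 3 libraries. The labels do not say whether these are separate cultures or technical repeats. The study's methods mention technical replicas as well as independent biological samples without saying which the libraries are, and the spread that the p-values rest on may be technical. Genotype, culture medium and harvest all differ between the embryo types and cannot be told apart from embryo type. The tissue is bulk, so fewer cells that make a transcript and less RNA per cell cannot be told apart either.

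Somatic embryogenesis grows embryos in culture from proliferating embryogenic tissue, and in conifers ABA together with a high osmotic strength drives the change from proliferation to maturation. Maturing embryos build up storage proteins and late embryogenesis abundant (LEA) proteins, hydrophilic proteins that accompany desiccation tolerance. Cultured plant tissue also commonly makes pathogenesis-related proteins, such as thaumatin-like proteins, chitinases and peroxidases, which act at the cell surface and in the cell wall.

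Depth ran from 22725467 to 43510184 counts per library outside C and from 74949347 to 89590401 counts in C. The C libraries had counts in 132828 to 136626 transcripts and the others in 24704 to 25194, and 137783 transcripts were counted only in C. A value of 1 CPM stood for 24.7 to 89.6 counts in the zygotic libraries. A count of 0 there allows up to 0.0335 to 0.121 CPM, with a floor of 3 counts that covers counting error only. As a check of the tissue, 87 transcripts named as LEA, storage or oil body proteins summed to 9273 to 14406 CPM in the somatic libraries, and none of them was at 0 in all 9. The summed level of 86 transcripts for DNA replication and cell division was 2376 to 2754 CPM in ES1, 1156 to 1309 in ES2 and 703 to 1059 in ES3, also with none at 0. Both lists come from tables built from these samples, so the absence of zeros does not check the tissue. The list of photosynthesis proteins held 1 named transcript, at 3.17 to 5.32 CPM in the somatic libraries.

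**Figure D1:**
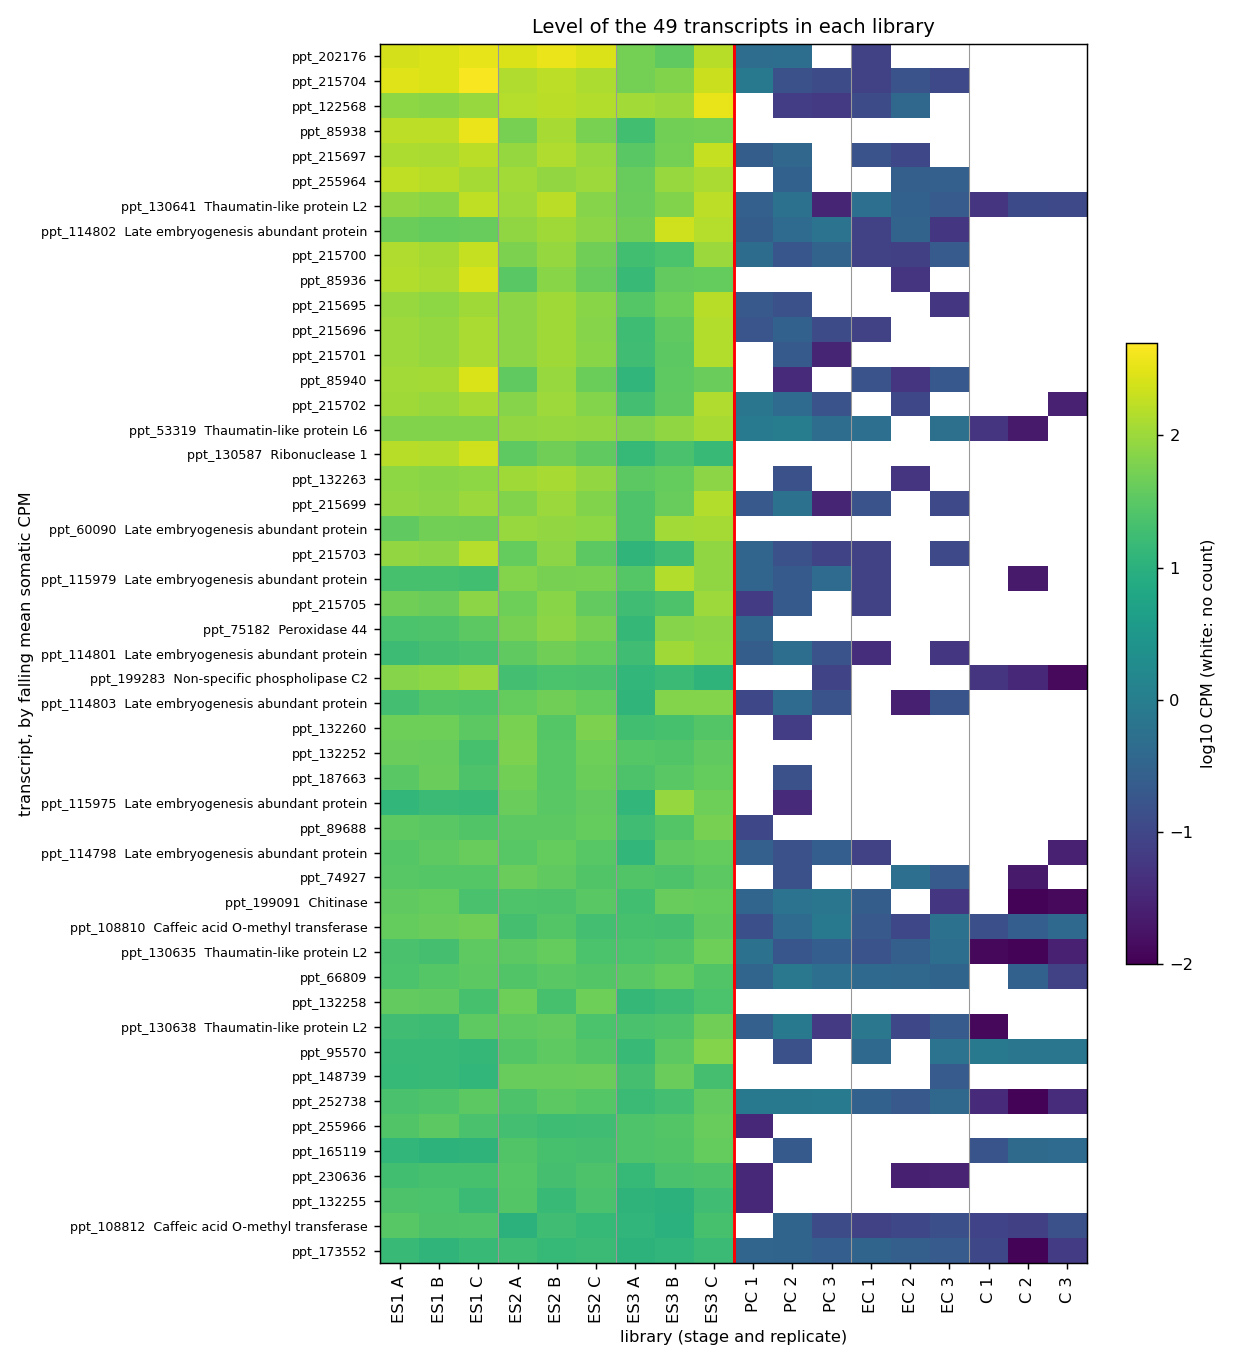
Heat map of log10 CPM for the 49 transcripts (rows, ordered by mean somatic CPM) in the 18 libraries (columns), with white cells for no count and a red line between somatic and zygotic libraries. All 49 rows had counts in every somatic library, and 32 of them were white in all 3 C libraries.

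Of the zygotic counts that did occur, most lay in the younger embryos. Counts were found for 42 of the 49 transcripts in PC, for 34 in EC and for 17 in C, although the C libraries had the highest totals. Of the C counts, 29.1% to 29.4% lay in transcripts counted only there. Low values in C were also seen on lists outside the 49. The division list summed to 5146 to 5509 CPM in PC and 178 to 194 in C. The defence list gave 1171 to 1310 and 3.49 to 4.39. The list of LEA, storage and oil body proteins stayed similar, at 4373 to 4731 and 4208 to 4595. The summed count over the 9 zygotic libraries had a median of 24 and reached 214, against 4517 to 68745 over the 9 somatic libraries. Together the 49 transcripts took 0.123% to 0.445% of the counts of a somatic library and 0.000152% to 0.0012% of those of a zygotic library. The 5 transcripts with no zygotic count were ppt_60090 (LEA protein), ppt_130587 (ribonuclease 1) and ppt_85938, ppt_132252 and ppt_132258, which have no protein match. Counts in all 9 zygotic libraries were found for 5 others.

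The thresholds cut through related transcripts. Just inside the somatic limit lay ppt_108812, ppt_132255 and ppt_173552, with lowest somatic values of 10.2, 10.6 and 10.7 CPM. Just outside it lay ppt_241345, named as the transcription factor MYB30, at 9.94 CPM in ES1 replicate A, then ppt_90375 at 9.70 CPM and ppt_108809 at 9.49 CPM. Just inside the zygotic limit lay ppt_53319, ppt_252738 and ppt_95570, with highest zygotic values of 0.973, 0.844 and 0.797 CPM. Just outside it lay ppt_53320 and ppt_131745 at 1.01 CPM and ppt_87980 at 1.09 CPM. The pair ppt_53319 and ppt_53320 carries the same name, thaumatin-like protein L6, and falls on either side of the line.

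**Figure D2:**
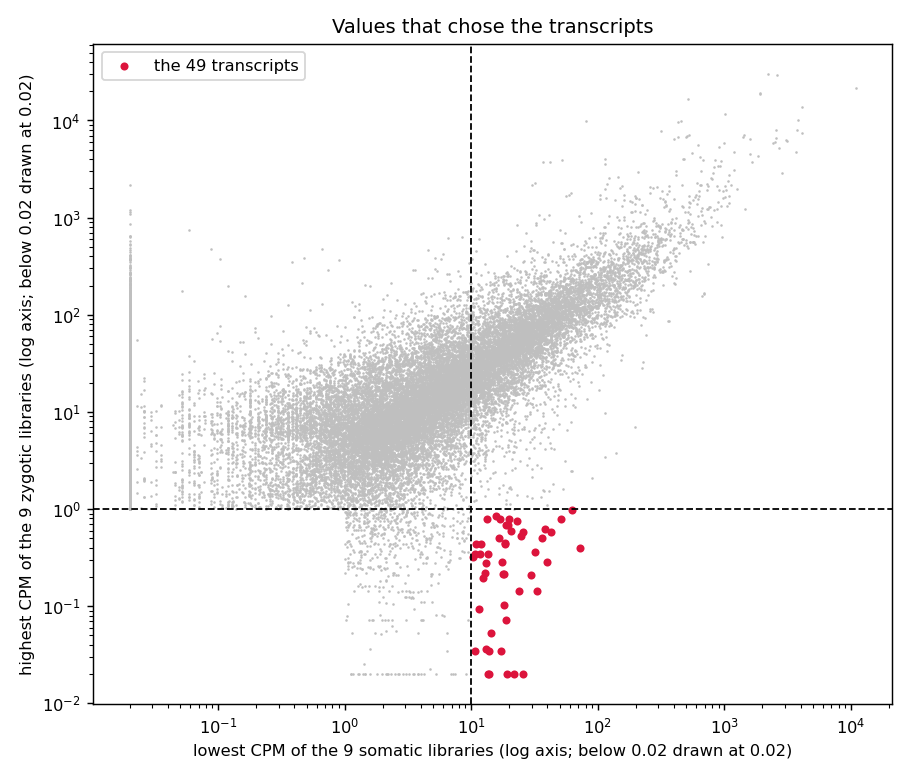
Each point is a transcript with either value at 1 CPM or more, by the lowest CPM of the 9 somatic libraries (x axis, log) and the highest CPM of the 9 zygotic libraries (y axis, log); dashed lines are the limits of 10 and 1 CPM. The 49 transcripts (red) fill the lower right corner out of 7610 transcripts at or to the right of the 10 CPM line.

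The 49 are 0.644% of the 7610 transcripts with at least 10 CPM in all 9 somatic libraries. With the embryo types exchanged, 40 transcripts had at least 10 CPM in all 9 zygotic libraries and below 1 CPM in all 9 somatic libraries.

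The supplementary tables of the study list all 49 identifiers, and names are matches to proteins of other species. A protein with an informative name was matched for 17 transcripts, under 8 different names. Another 15 matched only uncharacterized proteins or unnamed transcripts of other plants, and 17 had no protein match. The informative names were LEA protein (7 transcripts), thaumatin-like protein L2 (3), thaumatin-like protein L6, chitinase, peroxidase 44, caffeic acid O-methyltransferase (2), ribonuclease 1 and non-specific phospholipase C2. None of the 49 was named as a transcription factor, a kinase, a transporter, a terpenoid enzyme or a hormone gene, although ppt_202176 carries a protein kinase annotation. Of the 154, 72, 116, 43 and 65 transcripts on these lists only 30, 10, 34, 18 and 13 had at least 10 CPM in every somatic library, so few that a share of 0.644% comes to less than 1 transcript over all of them.

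The 49 transcripts need not be 49 separate genes, and whether a group stands for 1 gene was not tested. Joined where they shared a protein match or stood within 3 identifier numbers of each other, they formed 24 groups, of which 17 held 1 transcript and the largest held 10. Closeness of identifiers carries information in this assembly, because 70.6% of 1018 named pairs with adjoining numbers shared a protein match, against 0 of 53 pairs that were 100 numbers apart. Reads that map to several near-identical transcripts can be divided between them, and how the authors counted these is not stated. Values of single members of a group are therefore uncertain, and the sums of groups are given beside them. Transcript lengths were not used, so differences in CPM between transcripts are not read as differences in expression, and ranks by CPM only order or name them. Values per library are plain CPM, and fold changes are on the TMM scale (edgeR's scaling of library sizes). Where a statement on overlap of a single transcript differs between these scales, this is said. Counts of transcripts without overlap are given on plain CPM.

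In the tests between somatic stages all 49 transcripts were measured, since all passed the filter of above 2 CPM in at least 6 libraries. A transcript was called changed at an adjusted p under 0.05 and more than 2-fold, in edgeR's quasi-likelihood test with Benjamini-Hochberg adjustment over 23118 transcripts. From ES1 to ES2, 6 of the 49 rose and 4 fell. Among all transcripts tested 8.42% rose and 9.6% fell, and among the other 7561 at 10 CPM or more in every somatic library 8.07% rose and 3.6% fell. From ES2 to ES3 none of the 49 was called in either direction, with background shares of 1.65% and 2.72% of all transcripts and 1.06% and 0.661% of the other 7561. At an unadjusted p under 0.05, 1 rose and 5 fell in that step, and DESeq2 called 0 higher and 1 lower. From ES1 to ES3, 10 rose and 5 fell, against 15.2% and 15.4% of all transcripts and 15% and 6.39% of the other 7561. These 10 and 5 are 20.4% and 10.2% of the 49. Of the 10, 6 were LEA transcripts with the same protein match, and 3 of the 5 were ppt_85936, ppt_85938 and ppt_85940. Transcripts of a group are not separate units, so these shares are not read as above or below the backgrounds. The selection itself limits what can rise or fall, since a transcript under 10 CPM in any ES1 or ES3 library was left out. The ES2 counts rest on single libraries. The 6 that rose became 2 without any 1 of the ES1 libraries or without ES2 replicate A and 3 without ES2 replicate B or C, and the 4 that fell became 2 without ES1 replicate C or ES2 replicate A or C, and 7 without ES3 replicate C.

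Across the 3 comparisons, 34 of the 49 transcripts were never called. All 6 that rose from ES1 to ES2 and all 4 that fell were called in the same direction from ES1 to ES3. The median log2 fold change of the 49 was 0.27 for ES2 against ES1, 0.03 for ES3 against ES2 and 0.24 for ES3 against ES1. The medians of the other 7561 were 0.08, 0.08 and 0.17. Without TMM factors the median of all transcripts tested moves to -0.18, -0.18 and -0.36 in the 3 comparisons. On plain CPM, all ES2 libraries lay above all ES1 libraries for 13 of the 49 and below for 11. Among the other 7561 the shares were 22.9% and 36.5%. For ES3 against ES2 it was 1 and 6, against 6.07% and 25.4%. For ES3 against ES1 it was 5 and 11, against 19.9% and 43.1%. On plain CPM, stages without overlap were thus common outside the 49 as well. On the TMM scale more of the 49 lay above and fewer below in each comparison. The balance of rise and fall in these counts therefore depends on the scale. For ES3 against ES1, ppt_95570 overlapped on plain CPM and lay above on the TMM scale, while ppt_215704 lay below and then overlapped.

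**Figure D3:**
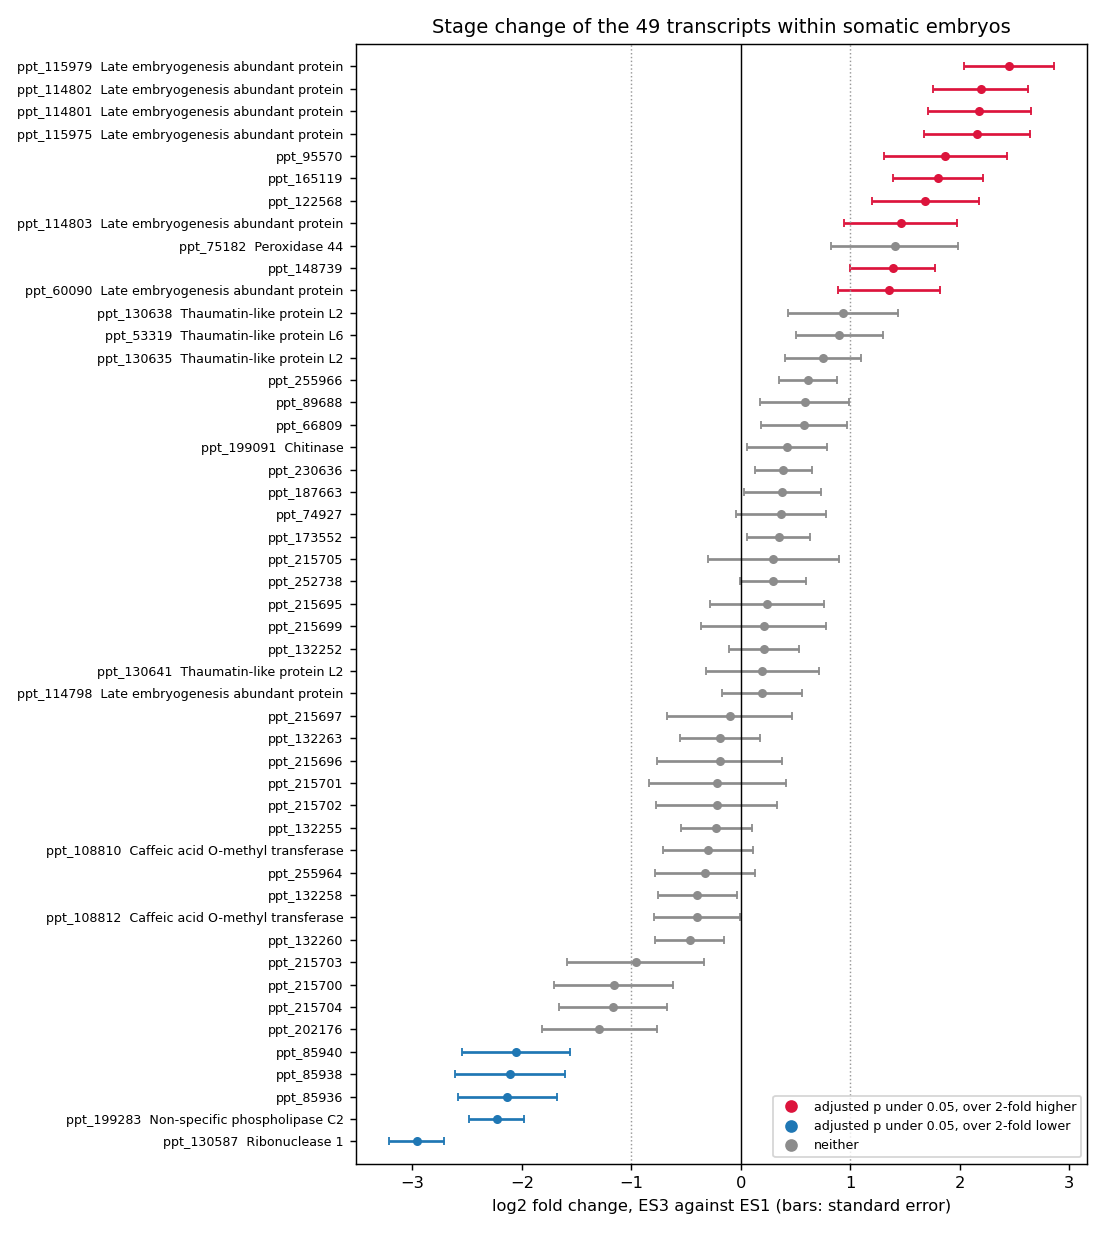
Log2 fold change of ES3 against ES1 for each of the 49 transcripts (points) with its standard error (bars), in red where higher and in blue where lower by the call rule, in grey otherwise. LEA transcripts make up 6 of the 10 red points, and ribonuclease 1 and non-specific phospholipase C2 have the lowest values.

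LEA proteins gave the clearest group that rose. Of the 7 LEA transcripts, 4 were called higher in ES2 than in ES1 and 6 higher in ES3 than in ES1, with a median log2 fold change of 2.16 for the latter. The transcript ppt_115979 stood at 21.3, 21.8 and 18.6 CPM in ES1 replicates A, B and C, at 66.6, 53.9 and 57.0 CPM in ES2 and at 29.1, 145 and 83.0 CPM in ES3. All ES2 and ES3 libraries lay above all ES1 libraries, and ES3 replicate A lay below the ES2 libraries. Its log2 fold change was 1.72 ± 0.40 (SE, n = 3 per stage) for ES2 against ES1 with an adjusted p of 0.00389 (edgeR), and 2.45 ± 0.41 for ES3 against ES1 with an adjusted p of 0.000139. In the zygotic libraries it had 34 counts in all, with 10, 6 and 14 in PC.

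The LEA transcript ppt_114802 gave 44.6, 38.2 and 41.0 CPM in ES1, 84.2, 106 and 77.5 CPM in ES2 and 47.6, 231 and 150 CPM in ES3. The stages ES1 and ES2 did not overlap, and within ES3 replicate B was the highest and replicate A was the closest to ES1. It rose by a log2 value of 1.31 ± 0.42 to ES2 (adjusted p = 0.0286, edgeR) and 2.19 ± 0.43 to ES3 (adjusted p = 0.000773, edgeR). The LEA transcript ppt_115975 rose by 1.52 ± 0.48 and 2.16 ± 0.49 on the same scale, from 13.2, 15.7 and 14.8 CPM in ES1 to 41.6, 31.5 and 36.6 CPM in ES2. It had 1 count in all 9 zygotic libraries together. The LEA transcript ppt_114801 went from 16.6, 20.7 and 22.1 CPM in ES1 to 18.2, 105 and 78.2 CPM in ES3, a log2 fold change of 2.18 ± 0.47 (adjusted p = 0.00148, edgeR). In both of the last the ES3 replicate A value lay within or below the ES1 range on plain CPM and above it on the TMM scale. For these 3 transcripts and ppt_115979 the ES3 call held without any 1 of the 18 libraries, with log2 values from 1.57 to 2.88. The ES2 calls held without any 1 library for ppt_115979 only. Those of the other 3 were lost without each of the ES1 libraries and without at least 1 of the ES2 libraries. That of ppt_114801 held in 9 of the 18 fits, and was also lost without EC replicate 1, EC replicate 3 or PC replicate 1.

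For the other LEA transcripts the ES3 call was less steady. The transcripts ppt_60090 and ppt_114803 had log2 fold changes of 1.35 ± 0.47 and 1.46 ± 0.52 for ES3 against ES1, with edgeR adjusted p of 0.0339 and 0.0294. Neither was called without ES3 replicate B, ES3 replicate C or any of the ES1 libraries, and ppt_60090 also not without ES2 replicate A. The transcript ppt_114798 stayed near its starting level, with a log2 value of 0.19 ± 0.37 (adjusted p = 0.695, edgeR). Summed over the 7, the level was 199 ± 16.4 CPM in ES1, 388 ± 27.3 in ES2 and 507 ± 318 in ES3 (mean ± SD, n = 3), with 159, 783 and 578 CPM in ES3 replicates A, B and C.

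In the supplementary tables, which are shortened and built from these samples, 15 transcripts shared the protein match of these 7. Transcripts outside those tables have no name here, so others of this match may be missing. The 15 summed to 585 ± 27.6 CPM in ES1, 854 ± 92.9 in ES2 and 1188 ± 754 in ES3. Their sum in zygotic embryos was 11.4 ± 5.01 CPM in PC, 2.26 ± 0.860 in EC and 0.0252 ± 0.0268 in C. The listed transcripts of this match that missed the selection were low in zygotic embryos too, with stage means of at most 3.49 CPM. This was not so for reserve proteins as a class. The 80 other transcripts named as LEA, storage or oil body proteins summed to 9066 to 13828 CPM in the somatic libraries, and the whole list of 87 to 4208 to 5447 CPM in the zygotic libraries. Of the 79 others that could be tested, 32 were called higher and 5 lower in ES3 than in ES1.

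Ribonuclease 1, in *Arabidopsis thaliana* a secreted RNase induced by phosphate starvation and wounding, fell most steadily. The transcript ppt_130587 gave 155, 146 and 231 CPM in ES1, 34.6, 47.7 and 35.8 CPM in ES2 and 13.8, 22.5 and 15.6 CPM in ES3. The 3 stages did not overlap at any step. The log2 fold change was -1.98 ± 0.24 for ES2 against ES1 (adjusted p = 0.000176, edgeR) and -2.96 ± 0.25 for ES3 against ES1 (adjusted p = 5.68e-06, edgeR). The step from ES2 to ES3 was -0.99 ± 0.23 with an adjusted p of 0.0272 (edgeR), just short of the 2-fold limit, and it was called in 7 of the 18 fits without 1 library, those without ES3 replicate B or C among them. No zygotic library had a count.

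Non-specific phospholipase C2, an enzyme that cleaves the head group from membrane phospholipids, also fell. The transcript ppt_199283 gave 69.1, 78.5 and 101 CPM in ES1, 19.8, 23.2 and 22.6 CPM in ES2 and 12.9, 15.8 and 11.6 CPM in ES3, with no overlap between stages. Its log2 fold change was -1.72 ± 0.25 for ES2 against ES1 (adjusted p = 0.000139, edgeR) and -2.23 ± 0.25 for ES3 against ES1 (adjusted p = 6.74e-06, edgeR). The step from ES2 to ES3 was -0.51 ± 0.24 (adjusted p = 0.207, edgeR) and was called in 0 of the 18 fits without 1 library. In zygotic embryos it had 11 counts in all, with 4, 3 and 1 in C. Both enzymes kept their ES2 and ES3 calls against ES1 without any 1 of the 18 libraries.

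The other transcripts that fell have no protein match and stand 2 identifier numbers apart, ppt_85936, ppt_85938 and ppt_85940. The transcript ppt_85938 gave 168, 168 and 369 CPM in ES1, 53.6, 123 and 56.9 CPM in ES2 and 19.3, 49.8 and 52.4 CPM in ES3. Replicate C stood out in ES1 and replicate B in ES2, and the ES3 libraries lay below the ES2 libraries on plain CPM, while on the TMM scale ES3 replicate C, at 63.5, exceeded ES2 replicates A and C, at 49.99 and 51.3. For ES3 against ES1 the log2 fold changes of the 3 transcripts were -2.13 ± 0.45, -2.11 ± 0.50 and -2.05 ± 0.49, with edgeR adjusted p of 0.00189, 0.00582 and 0.00316, and each was called without any 1 library. For ES2 against ES1 the values were -1.67 ± 0.44, -1.39 ± 0.49 and -1.31 ± 0.48, with adjusted p of 0.0126, 0.0551 and 0.0499 (edgeR), so that ppt_85938 was not called. The call of ppt_85936 was lost without ES1 replicate C or ES2 replicate A or C, and that of ppt_85940 held in 7 of the 18 fits without 1 library. Summed, the 3 transcripts stood at 578 ± 279 CPM in ES1, 184 ± 92.3 in ES2 and 100.0 ± 47.0 in ES3.

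**Figure D4:**
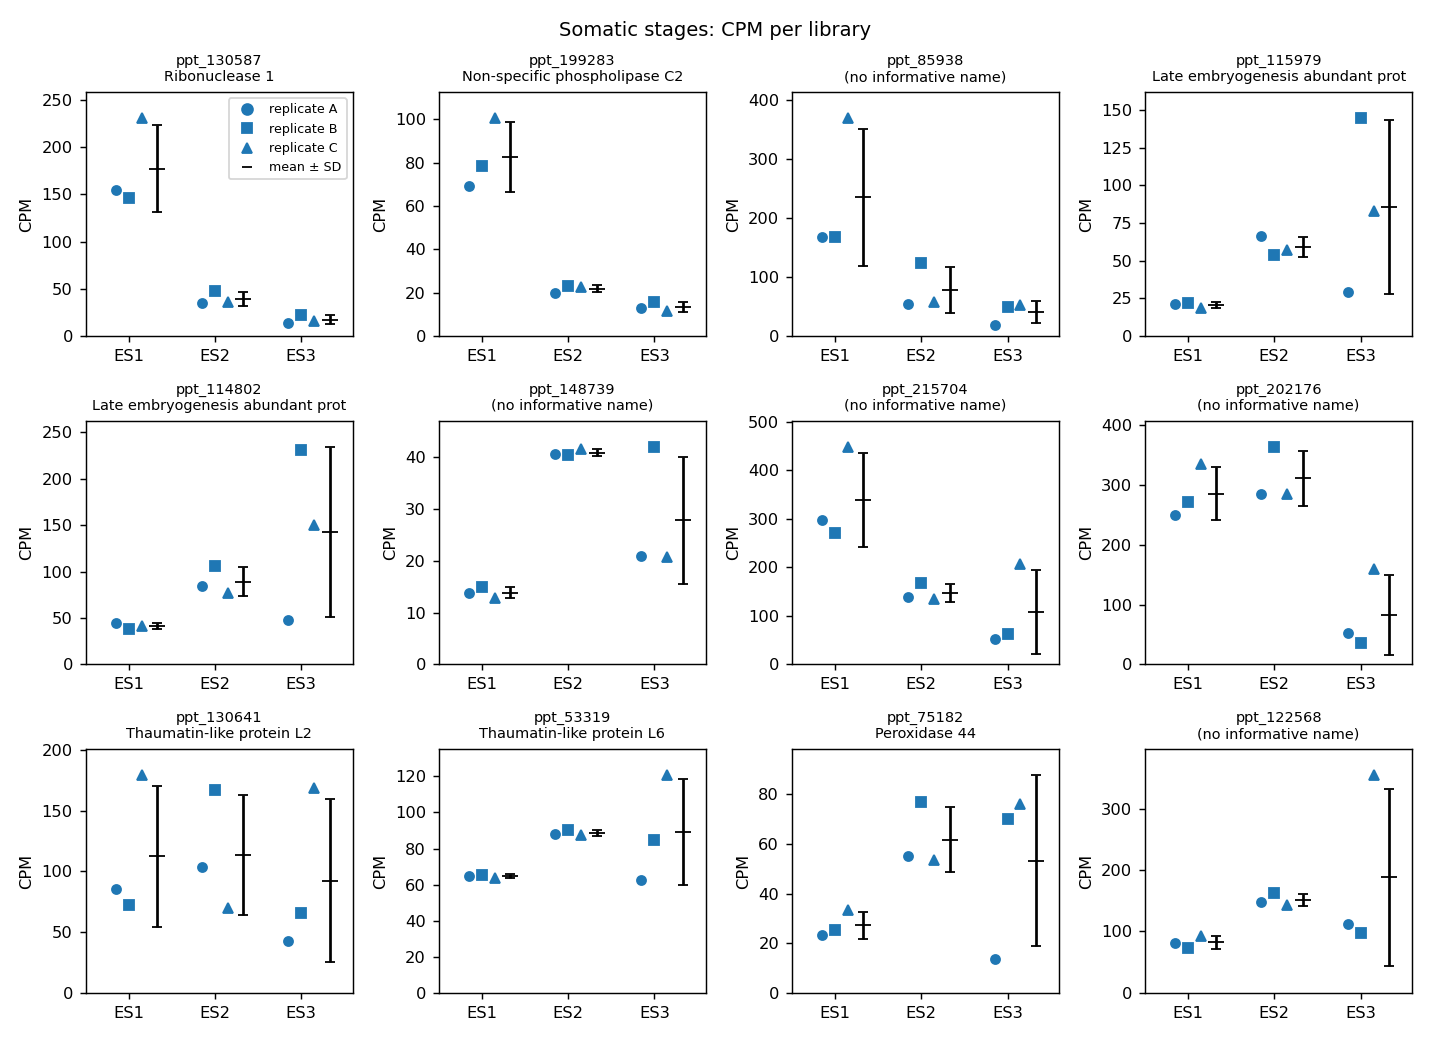
CPM per somatic library for 12 of the 49 transcripts, by stage, with a marker for each replicate letter and the mean ± SD of 3 libraries beside them; each panel has its own scale from 0. Ribonuclease 1 and phospholipase C2 step down with no overlap between stages, the LEA transcripts rise with a wide ES3 spread, and ppt_215704 and ppt_202176 are highest within ES3 in replicate C.

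Proteins of defence passed no stage test. None of the 5 transcripts named as thaumatin-like proteins or chitinase was called in any stage comparison, with adjusted p of 0.0707 or more (edgeR). Thaumatin-like proteins belong to the pathogenesis-related proteins that are secreted on attack and under osmotic stress. The L6 transcript ppt_53319 gave 65.1, 65.5 and 63.5 CPM in ES1, 87.8, 90.4 and 87.7 CPM in ES2 and 62.4, 84.7 and 121 CPM in ES3. Its ES1 and ES2 libraries did not overlap, yet the log2 fold change of 0.65 ± 0.39 did not pass the test (adjusted p = 0.232, edgeR). For ES3 against ES1 it was 0.90 ± 0.40 (adjusted p = 0.0707, edgeR), and without ES3 replicate A it was called higher.

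The L2 transcript ppt_130641 varied more between libraries of a stage than between stages. It gave 85.8, 72.0 and 179 CPM in ES1, 104, 167 and 69.7 CPM in ES2 and 42.5, 65.8 and 169 CPM in ES3. Its log2 fold changes were 0.22 ± 0.52, -0.02 ± 0.52 and 0.20 ± 0.52 for ES2 against ES1, ES3 against ES2 and ES3 against ES1. The L2 transcripts ppt_130635 and ppt_130638 ranged from 20.7 to 45.5 and from 17.0 to 48.2 CPM over the somatic libraries. The shortened supplementary tables named 6 transcripts L2, selected or not. Their summed level was 468 ± 54.5 CPM in ES1, 535 ± 84.5 in ES2 and 485 ± 206 in ES3. In zygotic embryos that sum was 6.44 ± 2.27 CPM in PC, 3.42 ± 0.462 in EC and 0.751 ± 0.242 in C. The 5 transcripts named L6 gave 198 ± 18.2, 251 ± 21.3 and 287 ± 108 CPM in ES1, ES2 and ES3, and 7.03 ± 1.32, 2.89 ± 0.851 and 0.167 ± 0.0957 CPM in PC, EC and C.

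Chitinase hydrolyses chitin, a fungal wall polymer, and in plant cultures is often secreted into the medium. The transcript ppt_199091 gave 35.8, 39.6 and 22.0 CPM in ES1, 25.8, 24.0 and 31.3 CPM in ES2 and 18.9, 40.1 and 38.6 CPM in ES3, with all stages overlapping. It had 59 zygotic counts, with 10, 17 and 22 in PC. Of the 88 other transcripts on the defence list, 6 were called higher and 8 lower in ES3 than in ES1.

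Peroxidase 44 belongs to the secreted class III peroxidases, which use hydrogen peroxide on wall phenolics. The transcript ppt_75182 gave 23.2, 25.3 and 33.4 CPM in ES1, 54.9, 76.6 and 53.4 CPM in ES2 and 13.7, 69.9 and 76.1 CPM in ES3. ES2 lay above ES1 in every library, while ES3 replicate A fell below all of ES1. The log2 fold changes of 1.37 ± 0.58 for ES2 against ES1 and 1.40 ± 0.58 for ES3 against ES1 were not called, at adjusted p of 0.0918 and 0.0629 (edgeR). Without ES3 replicate A both were called. Its only zygotic counts were 10 in PC replicate 1. Of 111 other transcripts for cytochrome P450s, peroxidases and redox enzymes, 19 were called higher and 43 lower in ES3 than in ES1.

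Caffeic acid O-methyltransferase methylates phenolic precursors of lignin and related compounds. The transcript ppt_108810 gave 39.2, 42.7 and 47.3 CPM in ES1, 21.0, 27.8 and 19.9 CPM in ES2 and 21.0, 20.5 and 35.6 CPM in ES3. All ES2 and ES3 libraries lay below all ES1 libraries on this plain CPM scale, but on the TMM scale ES3 replicate C overlapped ES1. The log2 fold changes were -0.71 ± 0.41 for ES2 and -0.30 ± 0.41 for ES3 against ES1, with adjusted p of 0.202 and 0.57 (edgeR). The neighbour ppt_108812 came closest to the somatic limit, with 10.2 CPM in ES3 replicate B. Both had counts in zygotic embryos of every stage, 135 and 49 in sum. The name was shared by 9 transcripts of the shortened tables. They summed to 982 ± 80.7, 529 ± 94.9 and 614 ± 159 CPM in ES1, ES2 and ES3. No zygotic library passed 11.3 CPM for that sum, with stage means of 9.58 for PC, 5.57 for EC and 4.92 for C. Of the 41 other phenylpropanoid transcripts, 6 were called higher and 9 lower in ES3 than in ES1.

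Counts of the transcripts named in the shortened tables were also added up by protein match before the limits were applied, and 15 names passed. They included chitinase, ribonuclease 1, peroxidase 44, non-specific phospholipase C2 and a SAUR-like auxin-responsive protein, whose 3 transcripts summed to 29.4, 28.9 and 22.8 CPM in ES1, ES2 and ES3 and to at most 0.463 CPM in a zygotic stage. LEA protein, both thaumatin-like names and caffeic acid O-methyltransferase did not pass as sums, since each exceeded 1 CPM in at least 1 zygotic library.

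The largest group was a run of 10 transcripts between ppt_215695 and ppt_215705, all matched to uncharacterized proteins of the liverwort *Marchantia polymorpha* that are annotated with metal ion binding and an extracellular location. None of the 10 was called between stages, with adjusted p of 0.0652 or more (edgeR). The transcript ppt_215704 gave 298, 270.5 and 449 CPM in ES1, 139.5, 169 and 134 CPM in ES2 and 51.6, 63.7 and 207 CPM in ES3. Both later stages overlapped each other, and every ES2 and ES3 library lay below every ES1 library on plain CPM, whereas on the TMM scale ES3 replicate C overlapped ES1. Its log2 fold change was -1.01 ± 0.49 for ES2 and -1.17 ± 0.50 for ES3 against ES1, at adjusted p of 0.138 and 0.0652 (edgeR).

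The libraries of this run moved as a block. In all 10 transcripts replicate C was the highest of ES1, replicate B the highest of ES2 and replicate C the highest of ES3, and replicate A was the lowest of ES3. Their summed level was 1200, 1059 and 1609 CPM in ES1, 735, 1071 and 692 CPM in ES2 and 242, 375 and 1412 CPM in ES3. With all libraries the medians of the 10 log2 fold changes were -0.17 for ES2 against ES1 and -0.20 for ES3 against ES1. Without ES3 replicate C all 10 were called lower in ES3 than in ES1, so 1 library decides this group. In PC to C the sum of the 10 did not exceed 3.19 CPM in any library, and 9 of the 10 had no count in C.

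The transcript ppt_202176, matched to an unnamed *Wollemia nobilis* transcript with a protein kinase annotation, was high until the last stage. It gave 250.1, 272 and 335 CPM in ES1, 285, 364 and 285 CPM in ES2 and 53.3, 36.3 and 159 CPM in ES3. The ES3 libraries lay below every ES1 and ES2 library. The log2 fold change of ES3 against ES2 was -1.61 ± 0.53 and of ES3 against ES1 -1.30 ± 0.53, with adjusted p of 0.0681 and 0.0544 (edgeR). Both were called without ES3 replicate C and without PC replicate 3. The transcript had 30 zygotic counts, with 14 and 14 in PC replicates 1 and 2.

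Matches to unnamed transcripts of *Wollemia nobilis* gave 2 further transcripts that rose. The transcript ppt_148739 gave 13.8, 14.9 and 12.8 CPM in ES1, 40.5, 40.4 and 41.6 CPM in ES2 and 20.9, 42.0 and 20.7 CPM in ES3. Its ES2 libraries were close together and far above ES1, with a log2 fold change of 1.75 ± 0.39 (adjusted p = 0.00465, edgeR), and ES3 against ES1 was 1.39 ± 0.39 (adjusted p = 0.0103, edgeR). The latter call was lost without ES3 replicate B. The transcript ppt_95570 gave 15.5, 15.1 and 13.3 CPM in ES1, 27.9, 34.1 and 27.8 CPM in ES2 and 15.1, 32.8 and 67.8 CPM in ES3. Its log2 fold change of 1.87 ± 0.56 for ES3 against ES1 (adjusted p = 0.0116, edgeR) was not called without ES3 replicate C. It also had the most zygotic counts, 62, 64 and 52 in the 3 C libraries, 0, 4 and 0 in PC and 10, 0 and 22 in EC.

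The remaining uninformative matches did not change between stages by the test. The transcript ppt_89688, matched to a *Marchantia polymorpha* protein annotated with manganese binding and nutrient reservoir activity, ranged from 18.1 to 54.4 CPM and had 3 zygotic counts. The transcript ppt_66809 ranged from 23.1 to 38.2 CPM and had counts in 8 of the 9 zygotic libraries.

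Among the 17 transcripts without a protein match, 2 were called higher and 3 lower in ES3 than in ES1. The transcript ppt_122568 gave 80.4, 72.5 and 93.2 CPM in ES1, 149, 162 and 144 CPM in ES2 and 113, 97.9 and 354 CPM in ES3. No ES1 library reached the later stages, and the ES3 call (log2 1.68 ± 0.49, adjusted p = 0.0105, edgeR) was lost without ES3 replicate C. The transcript ppt_165119 rose from 13.1, 10.9 and 11.4 CPM in ES1 to 25.8, 26.8 and 38.8 CPM in ES3, by a log2 value of 1.80 ± 0.41 (adjusted p = 0.00229, edgeR). That call held without any 1 library. Its zygotic counts were 13, 37 and 33 in C and 6 in PC replicate 2.

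The transcripts ppt_255964 and ppt_255966 stand 2 numbers apart and ran differently. The transcript ppt_255964 gave 176, 155 and 117 CPM in ES1, 113, 86.3 and 102 CPM in ES2 and 39.8, 94.2 and 129 CPM in ES3, with no call. The transcript ppt_255966 went from 20.03, 17.1 and 18.5 CPM in ES2 to 25.6, 27.4 and 40.5 CPM in ES3. That step, 0.99 ± 0.27 on the log2 scale with an adjusted p of 0.038 (edgeR), missed the 2-fold limit.

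A run of 5 transcripts without a match, ppt_132252 to ppt_132263, had 0 to 6 counts each over the 9 zygotic libraries, all 5 with none in C. Summed, they stood at 207 ± 31.6 CPM in ES1, 259 ± 39.7 in ES2 and 133 ± 41.4 in ES3. In ES3 the libraries gave 105, 114 and 181 CPM, and replicate C was the highest. The log2 fold changes of ES3 against ES2 were -0.88 to -0.36 with adjusted p of 0.11 or more (edgeR). Without ES3 replicate C, ppt_132258, ppt_132260 and ppt_132263 were called lower. The other 5 transcripts without a match, ppt_74927, ppt_173552, ppt_187663, ppt_230636 and ppt_252738, were not called, and in each of them the highest somatic value was at most 2.35 times the lowest.

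Most relatives of the 49 by identifier that had counts outside C were low in zygotic embryos too. No share over all transcripts is given beside this, so it is only a description. Within 3 numbers of a selected transcript stood 177 other transcripts, of which 66 had counts outside C. Of these 66, 44 averaged below 1 CPM in each zygotic stage, and 3 averaged 10 CPM or more in PC or EC. The clearest of the 3 was ppt_132249, 3 numbers from ppt_132252, at 193 CPM in PC, 204 in EC and 66.5 in C against 168 in ES1. A further 67 neighbours were counted only in C, 4 of them at 10 CPM or more, and these stood beside ppt_75182, ppt_255964 and ppt_255966. Whether such a neighbour took reads that would otherwise count for a selected transcript in C was not tested. Leaving C out of the selection gave 56 transcripts, with all 49 among them.

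The ES3 libraries differed widely for these transcripts. The coefficient of variation within ES3 had a median of 48.5% over the 49, against 17.0% within ES1 and 18.4% within ES2. For the other 7561 transcripts at 10 CPM or more in every somatic library it was 17.2%, 9.38% and 11.1%. Replicate A was the lowest ES3 library for 39 of the 49 and the highest for none, and replicate C was the highest for 40. Among the other 7561, replicate A was lowest for 27.6% and replicate C highest for 30.9%. On the TMM scale replicate A was lowest for 41 of the 49 and replicate C highest for 41, against 32.97% and 51.0% of the others, and the median coefficient of variation within ES3 was 58.9% against 16.4%. The 88 defence transcripts outside the 49, none of them at 0 in all somatic libraries, had the same order, with sums of 1445, 2299 and 4685 CPM in ES3 replicates A, B and C. Over all somatic libraries these 88 summed to 3696 to 4018 CPM in ES1 and 3010 to 3894 in ES2. The division list gave 979, 1059 and 703 CPM in ES3 replicates A, B and C. The part of these differences in the results above was not tested.

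**Figure D5:**
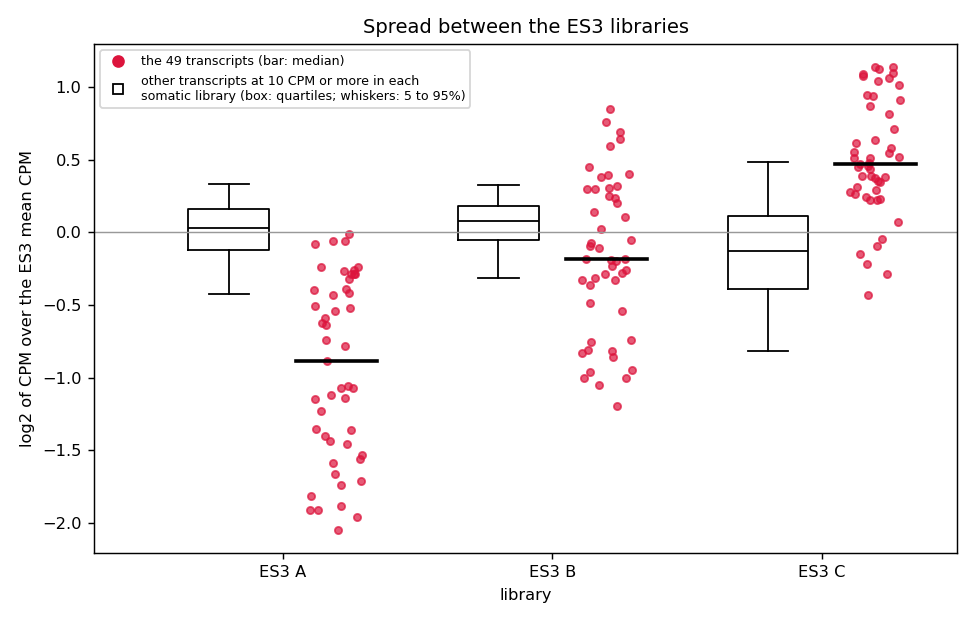
Log2 of CPM over the mean CPM of the 3 ES3 libraries, for the 49 transcripts (red points, bar at the median) and for the other 7561 transcripts at 10 CPM or more in every somatic library (boxes, whiskers from 5 to 95%). The medians of the 49 were -0.88, -0.19 and 0.47 in replicates A, B and C, and those of the others 0.03, 0.08 and -0.13.

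The counts of calls moved with these libraries. Without ES3 replicate A, 12 of the 49 were called higher and 5 lower in ES3 than in ES1, and 5 were called higher in ES3 than in ES2. Without ES3 replicate C, 6 were called higher and 16 lower in ES3 than in ES1, and 13 were called lower in ES3 than in ES2. Called in every fit that left out 1 library, for ES3 against ES1, were 5 that rose (ppt_114801, ppt_114802, ppt_115975, ppt_115979 and ppt_165119) and the 5 that fell (ppt_130587, ppt_199283, ppt_85936, ppt_85938 and ppt_85940). Replicate A also set the size of the selection, since 69 transcripts met the limits without it.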

How the data were processed

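The labels gave stage and replicate for all 18 columns, which leaves 0 unmatched. The deposited table holds raw counts of reads per transcript. The authors cleaned reads with SeqTrimBB and added an assembly of them (Trinity, CD-HIT-EST, Mira) to the published maritime pine transcriptome. They name the pine transcriptome as the mapping reference for BWA MEM, and sam2counts gave the counts. The submitters' processing notes name BWA and bcl2fastq, with versions not given in the sources used here. No genome or transcript sequence was used.

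CPM were taken over the full column sum. Stage tests used edgeR 4.0.16 (R 4.3.3, limma 3.58.1) with TMM factors in a single fit of the 18 libraries (6 stages), and DESeq2 1.42.0 as an alternative. Standard errors are the size of the log2 fold change over the square root of F. The fit was tested on simulated data. Pairs of libraries of a stage differed beyond sampling noise (chi-square over its degrees of freedom, 12.2 to 147). Members, the 17 keyword lists and the alternatives were chosen with earlier results of these data known. The lists draw on supplement tables that are shortened, built from these samples. Of the 17, 6 held members, and the other 11 none.

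Named transcripts are up to 4 names of each list, the 10 of highest mean somatic CPM, and the largest called rises and falls, 5 for ES3 against ES1 and 3 for the other comparisons. Members outside this rule were named after their values were seen. Alternatives were other filters, scalings and thresholds, DESeq2, only somatic libraries, a replicate block and leaving out each library.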

Additional observations from a re-analysis of the deposited data

How the results depend on the processing

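The number of transcripts that met the limits was set largely by the limits. It was 127 and 17 with a somatic limit of 5 and 20 CPM, 12 and 79 with a zygotic limit of 0.1 and 2 CPM, 5 with no zygotic count allowed, and 15 with counts added up by protein match, which counts names. It was 55 on TMM-scaled CPM, with 45 of the 49 among them, 56 without C, and 48 with C totals taken over transcripts also counted at other stages, an alternative added after seeing the data. Leaving out 1 library gave 49 to 69.

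Counts of calls ranged as follows without 1 library: 2 to 9 higher and 2 to 7 lower in ES2 than ES1, 0 to 5 higher and 0 to 13 lower in ES3 than ES2, and 6 to 12 higher and 5 to 16 lower in ES3 than ES1. With ES2 above ES1, 6 calls became 3 by library size alone and 2 under both looser filters (a minimum of 1 count, or of 1 CPM in 3 libraries) and at an adjusted p under 0.01, where the 4 below ES1 also became 2. With ES3 above ES1, 10 became 5 at an adjusted p under 0.01. With ES3 below ES1, 5 became 9 by library size alone. For ES3 below ES2, 0 became 1 with DESeq2 size factors, the DESeq2 Wald test and no fold threshold, and 4 by library size alone. For ES3 above ES2, 0 became 1 with no fold threshold.

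Over all transcripts in the fit, replicate letters showed no clear pairing of the somatic samples. The correlation of deviations from the stage means ran from -0.38 to 0.38 over the same-letter pairs. Higher values were found across letters, 0.52 for ES1 replicate C with ES2 replicate B and 0.40 for ES2 replicate B with ES3 replicate C, so the block does not follow this likeness between libraries. With the letters and numbers as a replicate block, 4 rose and 5 fell in ES2 and 8 rose and 8 fell in ES3, each against ES1, and 1 fell from ES2 to ES3. None of the named transcripts that was called changed direction under any alternative run. Depth limits the zygotic side only, where counts of 0 allow the level stated above, and 3 libraries a stage limit what the stage tests can show.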
